A study of Rattus norvegicus with 12 samples.

Results

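Endothelial genes and the signalling pathway of vascular endothelial growth factor (VEGF) were followed in the injured rat kidney through 10 genes, Vegfa, Kdr, Flt1, Tek, Tie1, Nos3, Emcn, Vwf, Cdh5 and Pecam1. They were chosen with earlier results of these data known. All probes with those gene names were taken, whatever their values. They were 15 probes, of 30367 probes and 26432 genes or unnamed transcripts in all. Vegfa had 4 probes, Vwf had 3, and each other gene had 1. The letters A to D order the probes of 1 gene from the brightest to the dimmest. All 15 probes passed the filter on dim probes, as did 21062 of all probes, and no spot of them was saturated.

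The groups were kidneys 7 days after ischemia-reperfusion injury (IRI), kidneys 3 days after IRI, and kidneys of sham-operated rats. In IRI the circulation of a kidney is blocked and then restored. Here only the left kidney was injured, and the left kidney was measured in every group. All rats were females of the inbred strain F344 aged 10 weeks, with 4 rats and 4 single-colour Agilent arrays per group. All sham rats were killed at day 7, and the day 3 rats thus have no sham rats of their own time. The duration of the ischemia is not analysed here.

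The endothelium lines the vessels and is the target of VEGF-A, the protein of Vegfa. In the kidney, podocytes and tubule cells make VEGF-A, and it acts on the endothelial cells of the neighbouring capillaries through the receptor tyrosine kinases VEGFR-2 (Kdr) and VEGFR-1 (Flt1). A separate receptor pair, Tek (Tie2) and Tie1, serves the angiopoietins and keeps vessels quiescent. Nos3 makes nitric oxide downstream of both pathways, Cdh5 and Pecam1 hold endothelial cells to each other, Emcn is a surface sialomucin of capillaries and veins, and Vwf is the clotting protein that endothelial cells store.

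The arrays read RNA of the whole kidney, on which fewer cells of a type and less RNA per cell cannot be told apart. Kidney markers were plain in the data: Umod, Slc12a1, Slc34a1, Lrp2, Aqp2 and Nphs1 all had tested probes. The 75th percentile of the processed signal ranged from 422 to 562 intensity units at day 7, from 665 to 743 at day 3 and from 225 to 394 in sham. Every value below is a log2 signal relative to that percentile of its own array, and every difference is therefore relative to it too. Genes of some other cell types also differed in summed level between the groups. The summed linear level of 10 proximal tubule genes, relative to the same percentile, ranged from 204 to 382 at day 7, from 62.7 to 186 at day 3 and from 566 to 621 in sham. That of 7 fibroblast genes ranged from 56.8 to 79.5 at day 7, from 88.2 to 133 at day 3 and from 15.3 to 28.2 in sham. That of 10 macrophage genes overlapped between the groups, with 31.3 to 40.8 at day 7, 34.1 to 43.6 at day 3 and 32.9 to 39.3 in sham. The brightest genes weigh most in such a sum. By the test given below, 6 of these 10 genes were higher and 1 lower at day 3. At day 7, 3 were higher and 1 lower. The shares of all genes were 24.1% higher and 33% lower at day 3, and 8.06% higher and 10.5% lower at day 7. The part of these cell types in the results that follow was not tested.

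The probes of the 2 genes with several probes read different stretches of their transcripts, and the printed ones show a pair of Vegfa probes and, for Vwf, 1 probe from each of the stretches that lie far apart. Positions are on the rat build rn4, per the files, which give none for the probe of Kdr, and all those of Vegfa and Vwf lie on the plus strand. Vegfa probe A lay at chr9:10528551-10528610, probe C at chr9:10531972-10532031 and probe B at chr9:10535933-10535992, which is the order of these 3 along the gene. Vwf probe C lay at chr4:161738186-161738245, probe B at chr4:161854554-161854613 and probe A at chr4:161854702-161854759. Vwf probes B and A thus started 148 bases apart, and probe C started 116 kb before probe B. Vwf probe A and the probe of Pecam1 hold AATAAA, the letters of the polyadenylation signal. The printed probes are in lower case throughout.
Vegfa probe A: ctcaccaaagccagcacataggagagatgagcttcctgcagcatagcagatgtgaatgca
Vegfa probe C: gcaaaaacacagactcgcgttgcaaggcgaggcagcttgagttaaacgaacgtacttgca
Vwf probe C: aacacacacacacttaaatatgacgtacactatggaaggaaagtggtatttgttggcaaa
Vwf probe B: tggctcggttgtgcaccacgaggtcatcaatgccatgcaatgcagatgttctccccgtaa

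Promoter windows from RefSeq on the build GRCr8, from 250 bases before to 50 bases after a transcript start, were at hand for 6 of the 10 genes in 7 windows. The motif GGAA, the core of the sites of ETS factors, which regulate many endothelial genes, was searched on both strands, where it reads TTCC. It stood 8 times in the window of Emcn, 5 times in that of Kdr, 4 times in those of Nos3, Tie1 and the first start of Vegfa, and 3 times in those of Flt1 and the second start of Vegfa. Of all 33469 windows 95.8% held it, with a median of 3 matches, and 29.2% held 5 or more. The core ACGTG of the hypoxia response, searched on both strands, stood in none of the 7 windows and in 19.3% of all windows, and its variant GCGTG stood 2 times in the window of Kdr, 1 time in that of Flt1 and in 29.7% of all windows. The GC box GGGCGG, the site of Sp1, stood 3 times in the windows of Flt1 and of the first start of Vegfa, which 8.97% of all windows matched or exceeded. The windows of the ligand and its receptor pair are printed, with GGAA and TTCC in capitals. They lie at chr9:22452604-22452903, chr14:32571813-32572112 and chr12:12333180-12333479, each on the plus strand. A match is a description of the letters and shows no binding. Sequence beyond the windows was not searched, so a motif absent from a window may still stand outside it.
Vegfa: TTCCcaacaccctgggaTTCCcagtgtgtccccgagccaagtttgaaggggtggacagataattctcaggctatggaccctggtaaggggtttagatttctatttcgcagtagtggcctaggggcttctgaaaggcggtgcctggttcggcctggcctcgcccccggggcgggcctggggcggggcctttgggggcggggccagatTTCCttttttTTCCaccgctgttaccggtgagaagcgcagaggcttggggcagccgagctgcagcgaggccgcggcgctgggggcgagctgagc
Kdr: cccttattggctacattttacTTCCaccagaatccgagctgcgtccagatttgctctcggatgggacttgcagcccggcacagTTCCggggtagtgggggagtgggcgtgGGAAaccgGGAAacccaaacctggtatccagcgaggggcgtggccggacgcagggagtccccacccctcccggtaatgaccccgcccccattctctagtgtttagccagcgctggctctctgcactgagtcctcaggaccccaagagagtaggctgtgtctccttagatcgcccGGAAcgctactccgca
Flt1: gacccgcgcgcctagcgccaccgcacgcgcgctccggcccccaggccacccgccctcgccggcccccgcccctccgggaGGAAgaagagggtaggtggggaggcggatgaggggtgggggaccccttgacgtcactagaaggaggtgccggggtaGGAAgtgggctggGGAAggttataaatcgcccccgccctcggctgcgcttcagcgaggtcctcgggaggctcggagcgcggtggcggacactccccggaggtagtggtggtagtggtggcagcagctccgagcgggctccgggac

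At day 3 most genes of this set were lower than in sham, and the lowest differences were those of Vwf and Vegfa. Of the 15 probes 13 were lower at day 3 than in sham and none was higher, by limma's moderated test with Benjamini-Hochberg adjustment over all tested probes at a threshold of 0.05. By the same rule 32% of all tested probes were lower and 24.5% were higher. The probes that did not pass were those of Cdh5 and Pecam1. The median log2 difference of the 15 probes was -1.53, and that of all tested probes was -0.11. For 13 probes the 4 day 3 arrays all lay below the 4 sham arrays, which held for 28.5% of all tested probes. With the brightest probe standing for its gene, 8 of 10 genes were lower, and 33% of all genes.

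At day 7 fewer members passed. Of the 15 probes 9 were lower at day 7 than in sham and none was higher, where 10.3% of all tested probes were lower and 8.06% higher. They were 3 probes of Vegfa, the 3 probes of Vwf, and the probes of Kdr, Tek and Emcn, so 5 of 10 genes by the brightest probe, against 10.5% of all genes. The median log2 difference was -1.06, and that of all tested probes was -0.06. For 10 probes the groups did not overlap, which held in this direction for 12.3% of all tested probes. Between the days, 7 of 15 probes were higher at day 7 than at day 3 and none was lower, where 17.1% of all tested probes were higher and 13.6% lower. By the brightest probe 3 of 10 genes were higher, where 17.8% of all genes were. The 7 probes were the 4 probes of Vegfa, Vwf probes A and B and the probe of Tie1. The groups did not overlap for 4 of the 15, and for 17.8% of all tested probes. Both comparisons with sham share the sham arrays.

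The calls depended on the background correction. With normexp on the mean signal, 7 of 15 probes passed at day 3, namely the 4 of Vegfa, Vwf probes A and B, and that of Emcn. None passed at day 7 against sham, where 4 had an unadjusted p under 0.05 and the lowest adjusted p by limma was 0.394. None passed between the days, where 5 had an unadjusted p under 0.05 and the lowest adjusted p by limma was 0.133. The sign of each difference called with the processed signal was kept. When spots below their local background were left out before normexp, 14, 10 and 7 probes passed for day 3 against sham, day 7 against sham and day 7 against day 3.

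**Figure D1:**
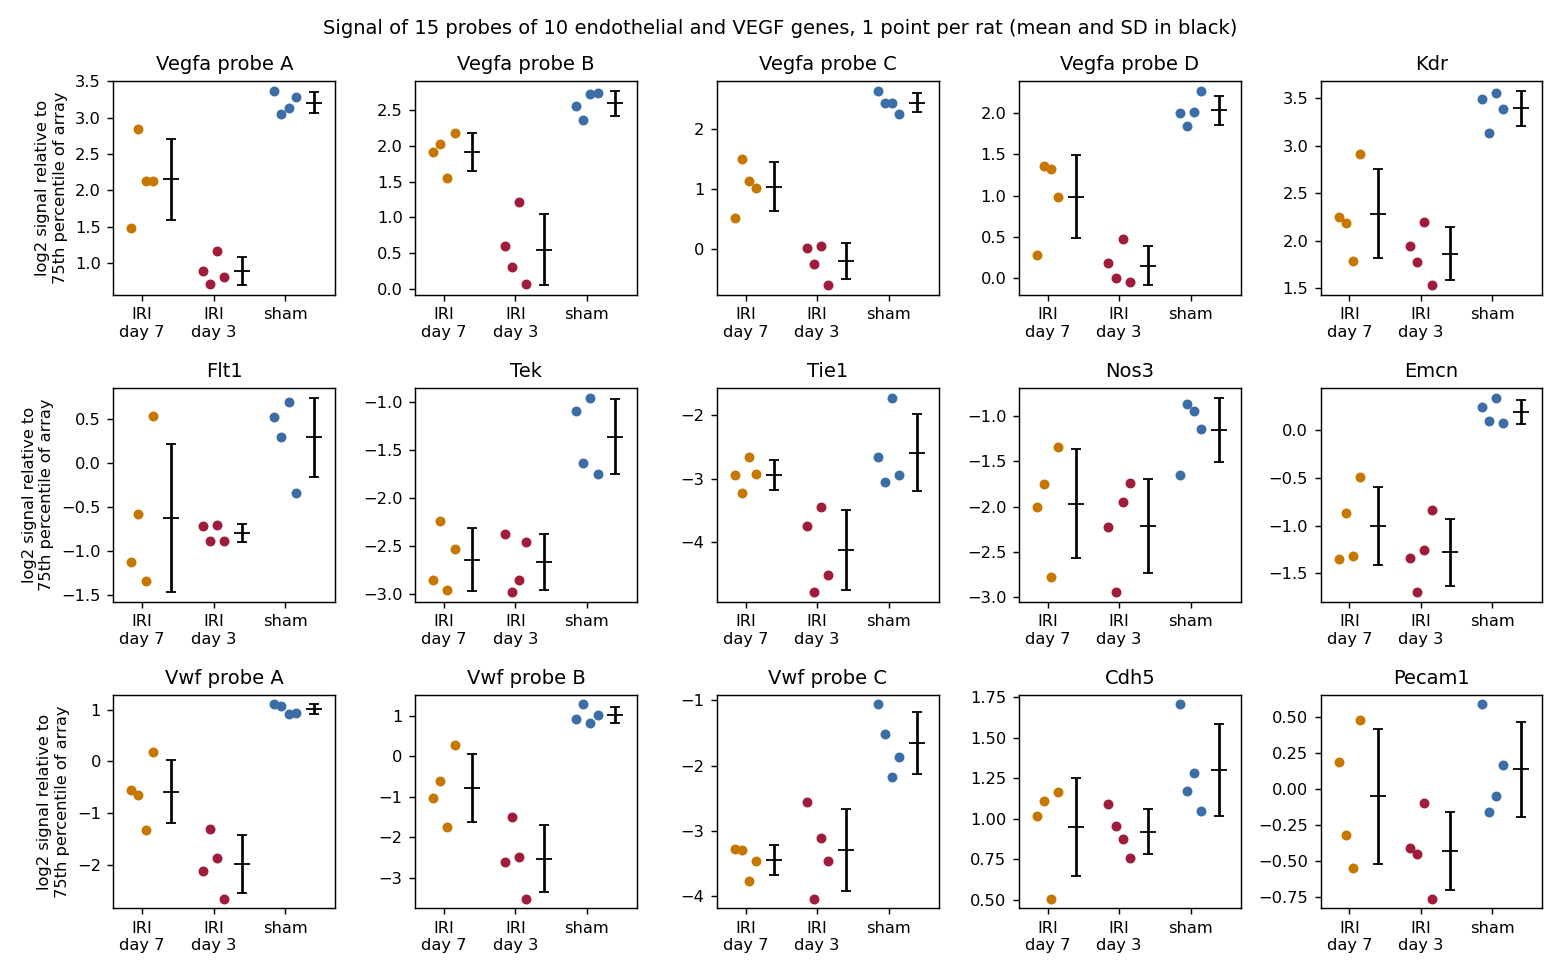
Log2 signal on each array, relative to its own 75th percentile (vertical axes, scaled per panel) for the 15 probes, with 1 point per rat and the mean and SD of 4 rats in black, for IRI day 7, IRI day 3 and sham. The sham points of Vegfa, Kdr, Emcn and Vwf lie above all points of both injured groups, and those of Cdh5 and Pecam1 overlap them.

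Vegfa, the ligand, fell on every probe at day 3 and stood between day 3 and sham at day 7. Vegfa probe A read 1.48, 2.85, 2.13 and 2.13 in day 7 kidneys, 0.89, 0.71, 1.16 and 0.81 in day 3 kidneys and 3.37, 3.04, 3.13 and 3.29 in sham kidneys. Every sham kidney was above every injured one, and every day 7 kidney was above every day 3 one. The fold was 4.99 lower at day 3 than in sham, a log2 difference of -2.32 ± 0.24 (SE; adjusted p = 2.08e-05 by limma). At day 7 it was -1.06 ± 0.24 against sham (SE; adjusted p = 0.0119 by limma), and the day 7 level was 2.39-fold that of day 3 (adjusted p = 0.00381 by limma).

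Vegfa probe C read 0.51, 1.49, 1.13 and 1.01 in day 7 kidneys, 0.0039, -0.26, 0.05 and -0.61 in day 3 kidneys and 2.64, 2.43, 2.44 and 2.25 in sham kidneys. The 3 groups did not overlap. Of the Vegfa probes it had the lowest log2 difference in both comparisons with sham, -2.64 ± 0.21 at day 3 (SE; adjusted p = 6.04e-06 by limma) and -1.40 ± 0.21 at day 7 (SE; adjusted p = 0.00181 by limma). Signal at day 7 was 37.8% of sham on this probe, and at day 3 it was 16%.

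Vegfa probe B, the one farthest along the gene, read 1.91, 2.02, 1.55 and 2.18 in day 7 kidneys, 0.61, 0.32, 1.21 and 0.07 in day 3 kidneys and 2.54, 2.36, 2.72 and 2.73 in sham kidneys. All 3 groups stood apart here as well, but the day 7 difference from sham, -0.67 ± 0.23 (SE), missed the threshold (adjusted p = 0.0639 by limma). It passed without day 3 replicate 3 (adjusted p = 0.0267 by limma) and with normexp without spots below local background (-0.60, adjusted p = 0.0497 by limma). At day 3 the difference was -2.03 ± 0.23 (SE; adjusted p = 3.69e-05 by limma). Vegfa probe D read 0.28, 1.36, 1.33 and 0.98 in day 7 kidneys, 0.18, 0.0012, 0.47 and -0.05 in day 3 kidneys and 2.0, 1.85, 2.02 and 2.27 in sham kidneys. The sham kidneys stood apart, and day 7 replicate 1 lay within the day 3 range. Its log2 difference was -1.88 ± 0.23 at day 3 (SE; adjusted p = 5.37e-05 by limma) and -1.05 ± 0.23 at day 7 (SE; adjusted p = 0.0107 by limma). Between the days it was 0.84 ± 0.23 (SE; adjusted p = 0.019 by limma), which missed the threshold without day 3 replicate 2, without day 3 replicate 4 or without day 7 replicate 2.

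The 4 Vegfa probes thus gave 37.8% to 62.7% of the sham signal at day 7 and 16% to 27.1% at day 3. Relative to probe A on the same array, the mean of probe C was 0.34 lower at day 7 and 0.33 lower at day 3 than in sham on the log2 scale, that of probe B was 0.39 and 0.28 higher, and that of probe D was 0.01 and 0.44 higher. These offsets between probes were looked at after the values were seen and carry no test. Which splice forms each probe binds was not tested.

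Podocyte and tubule genes, which mark cells that make VEGF-A, were read beside Vegfa. Of 9 tested podocyte genes 3 were lower at day 3 and 2 at day 7, and 2 were higher at day 3 and 1 at day 7. The day 3 counts are near the shares of all genes, of which 33% were lower and 24.1% higher. At day 7 10.5% of all genes were lower and 8.06% higher. The summed linear level of the podocyte genes ranged from 8.15 to 15.1 at day 7, from 9.27 to 10.6 at day 3 and from 16.7 to 21.7 in sham. Nphs1, which makes nephrin of the slit diaphragm, had a log2 difference of -1.66 at day 7 and -2.68 at day 3 against sham, and passed at both times (adjusted p = 0.00427 and 3.39e-05 by limma). Podxl was lower at both times as well. Cd2ap (1.79, adjusted p = 5.23e-05 by limma) and Tcf21 (1.44, adjusted p = 0.000937 by limma) were higher at day 3. Tcf21 was also higher at day 7 (1.04, adjusted p = 0.0233 by limma), and its sign turned with plain normexp. That day 7 call was lost in 5 of 21 settings besides plain normexp. Of 10 proximal tubule genes 9 were lower at day 3 and 5 at day 7. Of 7 genes of the thick ascending limb 5 were lower at day 3 and 1 at day 7, and 1 was higher at each time. Their summed level ranged from 30.1 to 44.7 at day 7, from 4.24 to 9.69 at day 3 and from 65.2 to 77.2 in sham. Their part in the Vegfa values was not tested.

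Kdr, which makes the main signalling receptor for VEGF-A, fell at both times. Its probe read 2.25, 2.18, 1.78 and 2.92 in day 7 kidneys, 1.95, 1.78, 2.20 and 1.53 in day 3 kidneys and 3.49, 3.14, 3.56 and 3.39 in sham kidneys. All sham kidneys were above all injured ones, while the injured groups overlapped. The signal was 2.89-fold lower at day 3 than in sham, a log2 difference of -1.53 ± 0.23 (SE; adjusted p = 0.000194 by limma). At day 7 it was 2.16-fold lower, -1.11 ± 0.23 (SE; adjusted p = 0.00779 by limma). The difference between the days, 0.42 ± 0.23 (SE), did not pass (adjusted p = 0.178 by limma).

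Flt1 makes VEGFR-1, which also exists as a soluble form that binds VEGF-A away from Kdr. Its probe read -1.13, -0.58, -1.34 and 0.54 in day 7 kidneys, -0.72, -0.89, -0.71 and -0.89 in day 3 kidneys and 0.52, 0.30, 0.70 and -0.34 in sham kidneys. The day 3 kidneys lay close together and below all sham kidneys, and day 7 replicate 4 lay within the sham range. The log2 difference at day 3 was -1.1 ± 0.36 (SE; adjusted p = 0.0203 by limma), and it missed the threshold without sham replicate 1 (adjusted p = 0.0503), without sham replicate 3 (adjusted p = 0.0562) and with scaling by total signal (adjusted p = 0.0562). At day 7 it was -0.92 ± 0.36 (SE; adjusted p = 0.0908 by limma), and without day 7 replicate 4 it was -1.31 (adjusted p = 0.00733 by limma).

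Tek and Tie1, the angiopoietin receptor and its partner, both fell at day 3, and at day 7 only Tek passed the test against sham. Whether the 2 genes differed from each other was not tested. Tek read -2.86, -2.24, -2.96 and -2.53 in day 7 kidneys, -2.38, -2.98, -2.86 and -2.46 in day 3 kidneys and -1.09, -1.64, -0.95 and -1.75 in sham kidneys. Its injured groups covered nearly the same range, below all sham kidneys. The log2 difference was -1.31 ± 0.23 at day 3 (SE; adjusted p = 0.000624 by limma) and -1.29 ± 0.23 at day 7 (SE; adjusted p = 0.00433 by limma).

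Tie1 read -2.94, -3.23, -2.65 and -2.93 in day 7 kidneys, -3.75, -4.78, -3.44 and -4.51 in day 3 kidneys and -2.65, -3.05, -1.72 and -2.94 in sham kidneys. The day 3 kidneys lay below all others, and the day 7 kidneys overlapped the sham kidneys. It was a dim probe, well above background on 3 of 4 day 3 arrays and on all arrays of the other groups. The log2 difference was -1.53 ± 0.34 at day 3 (SE; adjusted p = 0.00238 by limma) and -0.35 ± 0.34 at day 7 (SE; adjusted p = 0.51 by limma). Day 7 was 2.27-fold above day 3, 1.19 ± 0.34 on the log2 scale (SE; adjusted p = 0.0216 by limma), and this call was lost without day 3 replicate 2 (0.97, adjusted p = 0.0652) or replicate 4 (1.05, adjusted p = 0.0657).

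Nos3, the endothelial nitric oxide synthase, had 10 spots per array, which were averaged. It read -2.01, -1.75, -2.77 and -1.34 in day 7 kidneys, -2.23, -2.94, -1.95 and -1.75 in day 3 kidneys and -1.65, -0.87, -0.95 and -1.14 in sham kidneys. The day 3 kidneys were all below sham, by a margin that was small between day 3 replicate 4 and sham replicate 1. The log2 difference was -1.06 ± 0.33 at day 3 (SE; adjusted p = 0.0154 by limma) and -0.82 ± 0.33 at day 7 (SE; adjusted p = 0.101 by limma).

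Emcn fell at both times. It read -1.35, -0.87, -1.32 and -0.49 in day 7 kidneys, -1.34, -1.69, -1.25 and -0.84 in day 3 kidneys and 0.25, 0.09, 0.34 and 0.08 in sham kidneys. The sham kidneys were tightly grouped and above all injured ones. The signal was 2.77-fold lower at day 3, -1.47 ± 0.22 on the log2 scale (SE; adjusted p = 0.000206 by limma), and 2.29-fold lower at day 7, -1.20 ± 0.22 (SE; adjusted p = 0.00474 by limma).

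Vwf had the lowest log2 difference of the set at day 3. Vwf probe B read -1.02, -0.62, -1.75 and 0.27 in day 7 kidneys, -2.61, -1.51, -2.48 and -3.52 in day 3 kidneys and 0.93, 1.28, 0.83 and 1.02 in sham kidneys. Sham kidneys stood above all injured ones, and day 7 replicate 3 lay within the day 3 range. Its signal was 11.7-fold lower at day 3 than in sham, a log2 difference of -3.55 ± 0.44 (SE; adjusted p = 5.45e-05 by limma), and 0.57% of all tested probes had a lower one. At day 7 the difference was -1.80 ± 0.44 (SE; adjusted p = 0.0159 by limma), and day 7 was 3.36-fold above day 3 (adjusted p = 0.0126 by limma).

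Vwf probe A, at the same end of the gene, read -0.55, -0.65, -1.32 and 0.17 in day 7 kidneys, -2.11, -1.30, -1.87 and -2.65 in day 3 kidneys and 1.1, 1.07, 0.92 and 0.93 in sham kidneys. As on probe B, sham kidneys stood above all injured ones and day 7 replicate 3 lay within the day 3 range. Its log2 difference was -2.99 ± 0.31 at day 3 (SE; adjusted p = 2.26e-05 by limma) and -1.59 ± 0.31 at day 7 (SE; adjusted p = 0.0063 by limma), and that between the days was 1.40 ± 0.31 (SE; adjusted p = 0.00807 by limma).

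Vwf probe C, 116 kb before them, read -3.28, -3.29, -3.77 and -3.46 in day 7 kidneys, -2.55, -4.04, -3.12 and -3.46 in day 3 kidneys and -1.06, -1.51, -2.17 and -1.86 in sham kidneys. It was lower than sham in every injured kidney, and the injured groups overlapped. The log2 difference was -1.64 ± 0.31 at day 3 (SE; adjusted p = 0.000856 by limma) and -1.80 ± 0.31 at day 7 (SE; adjusted p = 0.00317 by limma). Between the days it was -0.16 ± 0.31 (SE; adjusted p = 0.721 by limma), where probes A and B were higher at day 7. It was dim, well above background on 2 of 4 day 7 arrays and on all arrays of the other groups. On the same array, the mean of probe A relative to probe C stood 0.21 higher at day 7 and 1.35 lower at day 3 than in sham on the log2 scale.

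Platelets and megakaryocytes also carry Vwf. Of 4 tested genes of theirs 2 were lower at day 3, where 33% of all genes were lower. They were Gp1bb of the platelet receptor for Vwf (-1.28, adjusted p = 0.000453 by limma) and Treml1 (-0.89, adjusted p = 0.000851 by limma). At day 7 Treml1 alone was lower (-0.54, adjusted p = 0.0432 by limma), where 10.5% of all genes were. The day 7 call was lost in 15 of 21 settings besides plain normexp, 10 of which left out 1 kidney (any kidney but sham replicate 4 and day 7 replicate 4), with an adjusted p of up to 0.192. The summed linear level of the 4 genes ranged from 0.71 to 0.74 at day 7, from 0.46 to 0.77 at day 3 and from 0.78 to 1.32 in sham. The defining platelet genes Pf4 and Ppbp were not tested, with Pf4 well above background on 1 day 7, 2 day 3 and 0 sham arrays and Ppbp on none. The part of these cells in the Vwf values was not tested.

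Cdh5, VE-cadherin, and Pecam1, also known as CD31, passed the test against sham at neither time. Cdh5 read 1.02, 1.11, 0.51 and 1.17 in day 7 kidneys, 1.09, 0.95, 0.88 and 0.76 in day 3 kidneys and 1.70, 1.17, 1.28 and 1.05 in sham kidneys. The groups overlapped in both comparisons with sham. The log2 difference was -0.38 ± 0.19 at day 3 (SE; adjusted p = 0.1 by limma) and -0.35 ± 0.19 at day 7 (SE; adjusted p = 0.211 by limma). Pecam1 read 0.19, -0.32, -0.55 and 0.48 in day 7 kidneys, -0.41, -0.45, -0.10 and -0.76 in day 3 kidneys and 0.59, -0.16, -0.05 and 0.17 in sham kidneys. Its groups overlapped too. The log2 difference was -0.57 ± 0.25 at day 3 (SE; adjusted p = 0.0677 by limma) and -0.19 ± 0.25 at day 7 (SE; adjusted p = 0.641 by limma). The day 3 difference of Pecam1 passed without day 3 replicate 3 (adjusted p = 0.0483 by limma) and without day 7 replicate 4 (adjusted p = 0.0478 by limma). It also passed with normexp without spots below local background (-0.53, adjusted p = 0.0286 by limma).

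**Figure D2:**
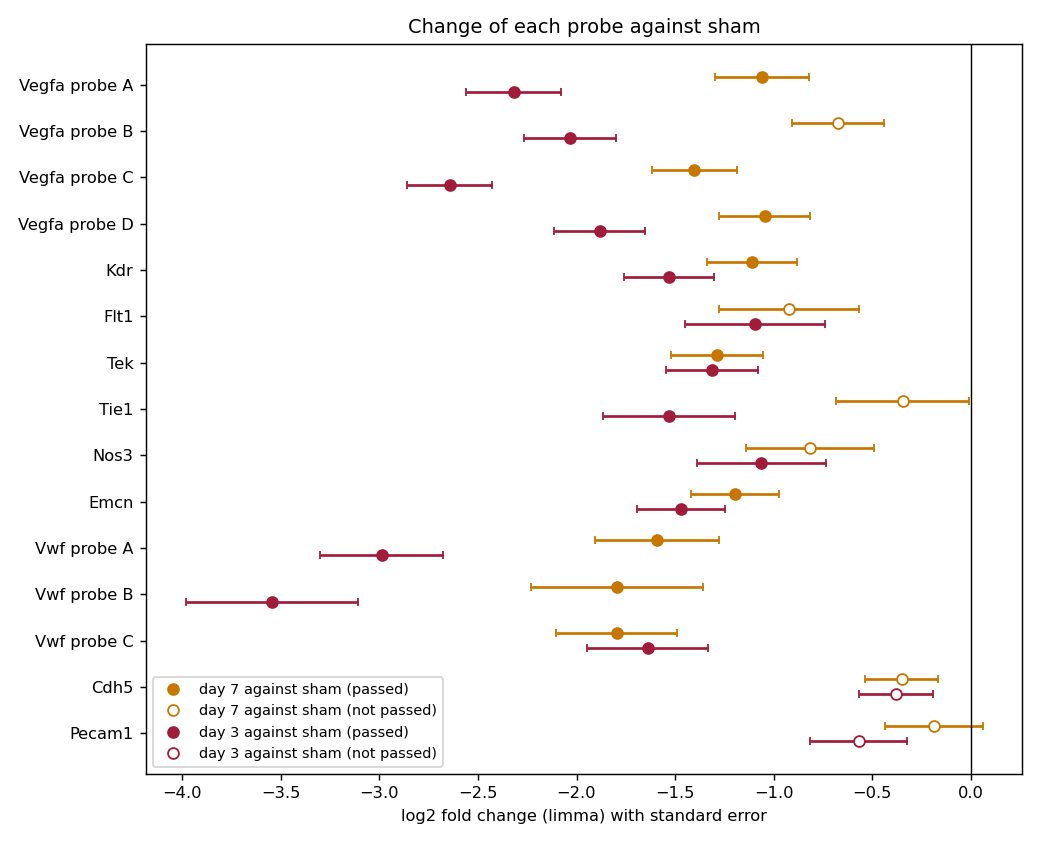
Log2 fold change with its standard error for each of the 15 probes, day 7 against sham and day 3 against sham, with filled points where the adjusted p was under 0.05. The 13 filled day 3 points run from -3.55 for Vwf probe B to -1.06 for Nos3, and Cdh5 and Pecam1 are open at both times.

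The differences from sham varied in size between the probes, and whether genes differed from each other was not tested. Set against the mean of the Pecam1 and Cdh5 probes on the same array, Kdr was 0.84 lower at day 7 and 1.06 lower at day 3 than in sham on the log2 scale, Emcn 0.93 and 1.0 lower, and Tek 1.02 and 0.84 lower. Vwf probe A was 1.32 lower at day 7 and 2.51 lower at day 3 by this measure, and Vegfa probe A 0.79 and 1.84 lower. Tie1 differed by -0.08 at day 7 and by -1.06 at day 3. Flt1 was 0.65 lower at day 7 and 0.62 lower at day 3, and Nos3 0.55 and 0.59 lower. For both genes these values overlapped those of sham at both times. This yardstick was chosen after the values of Pecam1 and Cdh5 were seen, so the offsets are a description with no test. The 7 higher calls between the days are the test of whether the day 7 and day 3 differences from sham are unequal, since both are taken from the same sham arrays. In that test Kdr, Flt1, Tek, Nos3, Emcn, Cdh5 and Pecam1 did not pass, with log2 differences from 0.03 to 0.42, nor did Vwf probe C.

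**Figure D3:**
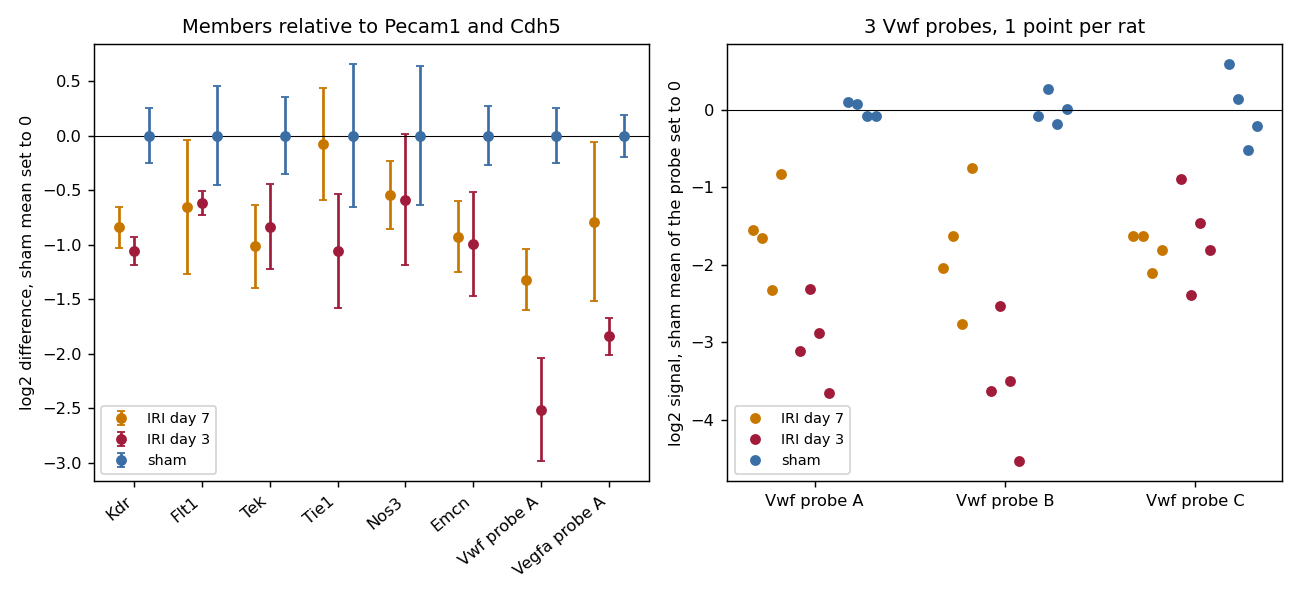
Left, mean and SD over 4 rats of each member's log2 signal minus the mean of Pecam1 and Cdh5 on the same array, with the sham mean set to 0. Right, log2 signal of the 3 Vwf probes with the sham mean of each set to 0 and 1 point per rat. The means of probes A and B are lower at day 3 than at day 7, with 1 day 7 point of each within the day 3 range, and the points of probe C overlap between the days.

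Likeness of course was measured over the 12 arrays as the root mean square difference of log2 values centred on each probe's own mean, with a small value for a close course. Among the members themselves the closest pairs were Tek and Emcn (0.26), Cdh5 and Pecam1 (0.27) and Kdr and Emcn (0.30). The measure is also small for probes that vary little. The root mean square of a probe's own centred values was 0.28 for Cdh5 and 0.40 for Pecam1. It was 0.68 for Tek, 0.70 for Emcn and 0.71 for Kdr. The value of Cdh5 and Pecam1 is thus about that of Cdh5 alone and does not show a shared course. Among named genes outside the set, Vegfa probe A was closest to Tkfc (0.24), Ttll3 (0.25) and Nr1h4 (0.25), which makes the bile acid receptor FXR. Kdr was closest to Tsku (0.18), Sts (0.21) and Ddt (0.22). Vwf probe A was closest to Pxmp2 (0.29), which makes a peroxisomal membrane protein. Cdh5 was closest to Cd36 (0.14), which makes a fatty acid receptor also found on capillary endothelium, and nearly as close to Thap11 (0.15) and Rbks (0.15). These arrays share their groups and their scaling, and the values are a description.

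The lists that follow are to be read against all genes, of which 33% were lower and 24.1% higher at day 3, and 10.5% lower and 8.06% higher at day 7. Of the differences from sham that passed for the genes picked by rule from the lists, plain normexp kept 6 of 41 at day 7 and 31 of 64 at day 3. Where another of the 21 settings also ended a call named below, this is said beside it.

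Of the other ligands and receptors of the VEGF family, few passed the test. Of 7 tested genes 1 was lower and 1 higher at day 3, and at day 7 none was lower and 1 higher, with a median log2 difference of 0.43 at day 3 and 0.39 at day 7. Vegfb, a ligand of Flt1, was higher at day 7 than in sham (0.75 ± 0.19 SE, adjusted p = 0.0192 by limma) and than at day 3 (0.92 ± 0.19 SE, adjusted p = 0.00549 by limma), with -0.17 at day 3 against sham (adjusted p = 0.469). Pgf, placental growth factor and also a ligand of Flt1, had a log2 difference of 0.94 at day 3 that did not pass (adjusted p = 0.0518 by limma). The lymphatic receptor gene Flt4 was lower at day 3 on its brightest probe (-0.83 ± 0.15 SE, adjusted p = 0.000855 by limma), but its other tested probe gave 0.88, so its probes disagree. The coreceptor gene Nrp2 was higher at day 3 (0.84 ± 0.26 SE, adjusted p = 0.0174 by limma), and its sign turned with plain normexp (-0.40). This call was also lost with normexp without spots below local background (adjusted p = 0.431) and without sham replicate 1 (adjusted p = 0.0501). Nrp1 differed by 0.43, Vegfc by 0.70 and Vegfd by 0.02 at day 3, and none of them passed.

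The angiopoietins, ligands of Tek, mostly did not pass the test. Angpt1, the activating ligand, differed by -0.14 at day 7 and -0.17 at day 3, and Angpt2, the context-dependent antagonist, by 0.04 at day 7 and -0.40 at day 3, none of which passed. Angpt4 was lower at day 3 (-0.80, adjusted p = 0.0308 by limma), a call lost in 8 of 21 settings, with an adjusted p of up to 0.169. They were the authors' table, quantile and total signal scaling, and leaving out sham replicate 3 or 4 or day 3 replicate 1, 3 or 4. The related secreted proteins went the other way: Angptl2 was higher at day 7 (1.88, adjusted p = 0.000842 by limma) and at day 3 (1.92, adjusted p = 7.47e-05 by limma), and Angptl4 was higher at day 3 (1.46, adjusted p = 0.00173 by limma).

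Genes of signal transduction behind the VEGF receptors were higher more often than lower at day 3. Of 32 tested genes 14 were higher and 2 lower, with a median log2 difference of 0.57, where 24.1% of all genes were higher. Hspb1, a small heat shock protein of the p38 branch, was highest (1.69, adjusted p = 0.000184 by limma). The lower genes were Mapk3, which makes the kinase ERK1 (-1.24, adjusted p = 0.00182 by limma), and Plcg1, the phospholipase bound by Kdr (-0.61, adjusted p = 0.0151 by limma, and 0.158 with scaling by total signal). At day 7 the higher genes were Cav1 of caveolae, which bind Nos3 (1.14, adjusted p = 0.00308 by limma), and Bad (0.51, adjusted p = 0.0136 by limma), and none was lower. Most of these genes are expressed in many cell types.

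Other endothelial surface and junction genes included lower and higher ones, at day 3 in shares near or below those of all genes. Of 29 tested genes 7 were lower and 7 higher at day 3, and 3 were lower and 5 higher at day 7, with medians of 0.03 and -0.14. Gja5, the connexin 40 of arterial endothelium, fell. Its probe was well above background on no day 7 array, on 1 of 4 day 3 arrays and on all sham arrays, and its mean was at least 5.90-fold lower at day 7 than in sham (adjusted p = 0.00116 by limma). Plain normexp gave a smaller log2 difference at day 7, -1.16 (adjusted p = 0.648 by limma). Gja5 also passed as lower at day 3 (adjusted p = 0.000254 by limma), where the size of the difference is not given because most arrays were near background. A bound here sets each array below background to the lowest signal well above background on it, if that is higher. Such bounds hold for the processed signal only. Podxl, a sialomucin of podocytes as well as endothelium, was also lower at day 7 (-1.26, adjusted p = 0.00324 by limma) and day 3 (-2.08, adjusted p = 2.13e-05 by limma). Gja1, connexin 43, was higher at day 7 (2.08, adjusted p = 0.0115 by limma) and day 3 (3.31, adjusted p = 0.000129 by limma). Cd93 was higher at day 3 (2.06, adjusted p = 0.00494 by limma). Apln, the peptide ligand of the apelin receptor, was well above background on no sham array and was at least 3.46-fold higher at day 3 (adjusted p = 1.66e-05 by limma), a direction that turned with plain normexp (-0.12).

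Endothelial transcription factor genes included both at day 3, with 6 lower and 7 higher of 17 tested and a median of -0.53. Tal1 (-1.40, adjusted p = 0.00102 by limma) and Foxc1 (-1.12, adjusted p = 0.00123 by limma) were the lowest. Klf4, a factor induced by shear stress, was higher (1.23, adjusted p = 0.021 by limma). Hhex was well above background on no sham array and was at least 1.34-fold higher at day 3 (adjusted p = 0.000291 by limma), a direction that turned with normexp, both plain (-0.78) and without spots below local background (-0.17). At day 7 the lower genes were Foxc1 (-0.80, adjusted p = 0.0277 by limma) and Sox18 (-0.77, adjusted p = 0.0333 by limma). The call of Foxc1 was lost in 8 of 21 settings, among them without sham replicate 1 or 4 and without day 7 replicate 1, 2 or 3, and that of Sox18 in 7, among them without sham replicate 1 or 3 and without day 7 replicate 2 or 3. The 1 higher call at day 7 was that of Hhex, which was not well above background in either group. It was lost in 7 of 21 settings, among them without sham replicate 2 or 4 and without day 7 replicate 1, 2 or 3. Of 9 tested Notch pathway genes, Notch4, the receptor gene typical of endothelium, was lower at day 7 (-0.87, adjusted p = 0.0208 by limma, lost with scaling by total signal and without sham replicate 1 or 3 or day 7 replicate 3) and day 3 (-1.04, adjusted p = 0.00223 by limma), as was the target gene Hey1 at day 3 (-1.09, adjusted p = 0.0115 by limma). The ligand gene Jag1 was higher at day 7 (1.42, adjusted p = 0.00076 by limma) and day 3 (1.66, adjusted p = 3.02e-05 by limma).

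Several genes of endothelial activation passed as higher. Of 9 tested genes 6 were higher at day 3 and 2 at day 7, and none was lower, where 24.1% of all genes were higher at day 3 and 8.06% at day 7, with a median log2 difference of 1.01 at day 3 and 0.40 at day 7. The adhesion molecule gene Icam1 was higher at day 7 (1.60, adjusted p = 0.0031 by limma) and day 3 (2.37, adjusted p = 3.83e-05 by limma), and Vcam1 at day 7 (0.93, adjusted p = 0.023 by limma, and 0.0667 without day 7 replicate 1). The selectin genes Sele and Selp, which are specific to activated endothelium and, for Selp, platelets, were well above background on no array and were not tested. Icam1 and Vcam1 are also made by tubule and stromal cells after injury.

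**Figure D4:**
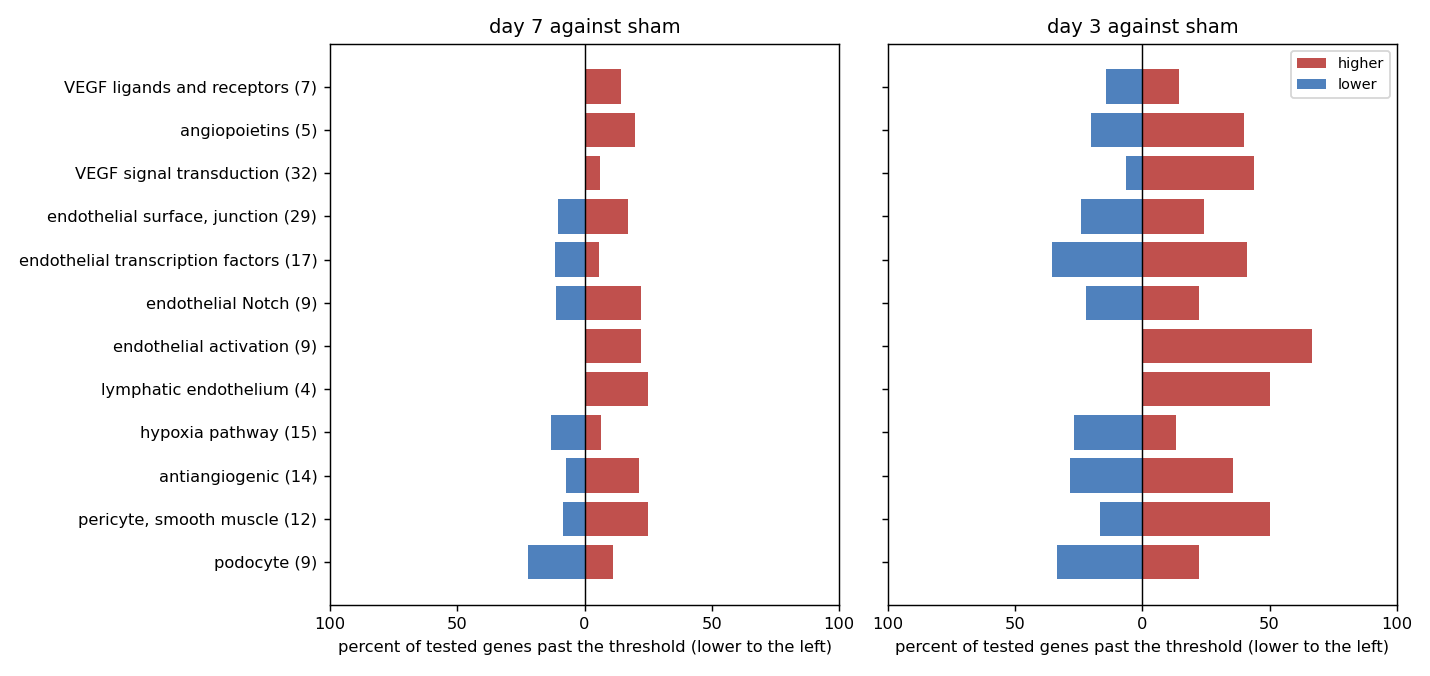
Percent of the tested genes of 12 lists (number tested in parentheses) that were higher (to the right) or lower (to the left) than sham at an adjusted p under 0.05, on the left at day 7 and on the right at day 3. Endothelial activation has higher genes and no lower ones, and surface and junction genes have both.

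In the hypoxia pathway, which induces Vegfa, the counts were near or below the shares of all genes. Of 15 tested genes 4 were lower and 2 higher at day 3, and 2 were lower and 1 higher at day 7, with medians of -0.04 and -0.15. Ankrd37, a target gene of hypoxia-inducible factor, was lower at day 7 (-1.11, adjusted p = 0.00662 by limma) and day 3 (-2.74, adjusted p = 6.03e-06 by limma), and so was Bnip3 at day 3 (-1.31, adjusted p = 0.000128 by limma). The day 7 call of Bnip3 (-0.71, adjusted p = 0.0217 by limma) was lost in 4 of 21 settings, namely with scaling by total signal, with the replicate number as a block, and without day 7 replicate 1 or 3. Hif1a itself was higher at day 3 (0.65, adjusted p = 0.00559 by limma), and Ndrg1 was higher at day 7 (0.98, adjusted p = 0.0114 by limma) and day 3 (0.56, adjusted p = 0.0461 by limma). The day 3 call of Ndrg1 was lost in 12 of 21 settings, with an adjusted p of up to 0.124, among them on leaving out sham replicate 1, 3 or 4, day 3 replicate 1, 2 or 3 or day 7 replicate 2, 3 or 4.

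Of 14 tested genes that restrain vessel growth 4 were lower and 5 higher at day 3, and 1 was lower and 3 were higher at day 7. Adamts1, a protease that binds VEGF-A, had a log2 difference of 4.0 at day 7 (adjusted p = 0.000107 by limma) and 5.33 at day 3 (adjusted p = 2.38e-06 by limma) against sham, and was well above background on 2 of 4 sham arrays. Cxcl10 was well above background on no sham array. With the processed signal it was at least 15.3-fold higher at day 3 (adjusted p = 0.000131 by limma) and at least 1.86-fold higher at day 7 (adjusted p = 0.0349 by limma). Plain normexp gave smaller log2 differences, 1.46 at day 3 (adjusted p = 0.122 by limma) and -0.022 at day 7. The day 7 call of Cxcl10 was lost in 9 of 21 settings, among them without sham replicate 1, 2 or 4 and without day 7 replicate 1, 2 or 3. Col4a3, a chain of the glomerular basement membrane whose fragment tumstatin restrains vessels, was lower at day 3 (-2.69, adjusted p = 4.56e-05 by limma).

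The list for pericytes and smooth muscle, the cells that wrap vessels, included more higher than lower genes. It is not of these cells alone, as it holds the endothelial ligand gene Pdgfb and a gene also in the endothelial surface list. Which cells its genes were read from was not tested. Of 12 tested genes 6 were higher and 2 lower at day 3, and 3 were higher and 1 lower at day 7, which for higher genes exceeds and for lower ones does not exceed the shares of all genes. Pdgfb, the endothelial ligand that recruits pericytes, was higher at day 7 (1.54, adjusted p = 0.0206 by limma, lost without sham replicate 1 or day 7 replicate 3) and day 3 (2.21, adjusted p = 0.000623 by limma), and its receptor gene Pdgfrb was higher at day 7 (0.95, adjusted p = 0.00304 by limma). Myh11, of mature smooth muscle, was lower at day 7 (-1.17, adjusted p = 0.0266 by limma) and day 3 (-0.90, adjusted p = 0.0303 by limma). The day 7 call of Myh11 was lost in 5 of 21 settings, among them without sham replicate 3 and without day 7 replicate 1, 3 or 4, and the day 3 call in 6, among them without sham replicate 3 and without day 3 replicate 3 or 4. Of 4 tested lymphatic genes 2 were higher at day 3, Pdpn (2.68, adjusted p = 0.000448 by limma) and Reln (1.81, adjusted p = 0.00128 by limma), and Ccl21 was higher at day 7 (1.18, adjusted p = 0.0318 by limma). The call of Ccl21 was lost in 7 of 21 settings, among them without sham replicate 2 or 3 and without day 7 replicate 1, 2 or 4. The remaining tested lymphatic gene passed against sham at neither time. Prox1, also a lymphatic gene, was not tested, being well above background on 0 day 7, 1 day 3 and 2 sham arrays. Whether the higher genes were read from lymphatic vessels was not tested.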

How the data were processed

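The members and all gene lists were chosen with earlier results of these data known. Total RNA of left kidneys was labelled with Cy3, per the labels, which name a kit for labelling DNA. Agilent Feature Extraction 9.5.1.1 made the processed signal, an intensity that is already background-subtracted, per the file headers, with no scaling between arrays. Deposited beside it were the intensity of the mean signal and of the local background and, as other values, 0 or 1 marks for detected, saturated or outlying spots, all per the file headers. The authors' deposited value table holds log2 values, which correlated with the scanner values, once these were set relative to the 75th percentile and centred on each probe, at 0.998 or more. It was used as an alternative, and its column medians were 0.01, 0.04, 0.0051 and 0.12 for day 7 replicates 1 to 4, -0.11, -0.16, 0.0020 and -0.21 for day 3, and -0.0011, -0.03, 0.30 and 0.01 for sham.

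From the 42877 spots per array, outlier spots were left out, spots of 1 probe averaged (1390 probes had several), log2 taken and the array's 75th percentile subtracted. Probes marked as detected over background by all 4 arrays of any group were tested with limma 3.58.1 in R 4.3.3, with all 12 arrays in 1 fit, two-sided, with Benjamini-Hochberg adjustment over 21062 probes and a threshold of 0.05. The fit was tested on simulated data. Each array is 1 rat, per the series' design. The number of arrays limits the precision. Genes named outside the set were all VEGF family and angiopoietin genes and, from each other list, up to 2 genes per direction and comparison with the largest difference past the threshold, by the brightest probe. Genes named as not tested were chosen after their detection was seen. Names followed the current rat gene table (GRCr8), by accession for 18343 probes, by symbol for 2213 and by synonym for 595, and otherwise the files. 22 alternative settings were run, with a normexp offset of 50. Promoter sequences are from RefSeq (GRCr8). A few genes of the lists and 1 probe sequence are not reported here.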

Additional observations from a re-analysis of the deposited data

Results flagged for a closer look

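The difference between the day 7 and the day 3 effect, both taken against the same sham kidneys, passed limma's test (adjusted p under 0.05) for 7 probes. On the log2 scale it was 1.26, 1.36, 1.24 and 0.84 for Vegfa probes A, B, C and D. It was 1.19 for Tie1, and it was 1.40 and 1.75 for Vwf probes A and B. All 7 are positive, so each signal was nearer to sham at day 7 than at day 3. Within each of the 3 slides, which hold 1 or 2 arrays of a group, the sign of all 7 was the same. Among 45 groups of 4 kidneys (15 probes in 3 groups), no kidney stood apart from the others of its group by Dixon's test at the 95% level, which chance flags in about 1 of 20 groups.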

How the results depend on the processing

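Of the 15 probes, 13, 9 and 7 passed for day 3 against sham, day 7 against sham and day 7 against day 3, and of all probes 11897, 3867 and 6474. With normexp background correction of the mean signal these counts were 7, 0 and 0 for the set and 3322, 92 and 173 for all probes. With the same correction and spots below their local background left out, they were 14, 10 and 7 for the set and 13310, 3889 and 8571 for all probes. Plain normexp turned the sign at day 3 of Apln (-0.12), Hhex (-0.78), Nrp2 (-0.40) and Ptger3 (-0.16), and at day 7 of Cxcl10 (-0.022), Hes1 (-0.052), Hhex (-0.34) and Tcf21 (-0.0100), and without the spots below local background that of Hhex at day 3 (-0.17) and day 7 (-0.042). No called difference of the set turned. Uncalled ones did, among them that of Cdh5 at day 7 with normexp (0.063) and that of Pecam1 at day 7 with scaling by total signal (0.048). The brightest probe per gene gave 8, 5 and 3, since it leaves 10 probes. Leaving out 1 kidney gave 12 to 14, 9 to 10 and 5 to 7 for the set, and 10398 to 11964, 2292 to 3831 and 3829 to 7394 for all probes. For all probes the count at day 7 against sham was 2427 without day 7 replicate 1 and 2292 without day 7 replicate 3, and that between the days was 4031 without day 3 replicate 2, 3829 without day 3 replicate 4 and 4217 without day 7 replicate 4. The labels do not say that the replicate numbers pair kidneys. Correlations of deviations from the group means ran from -0.332 to 0.139 over 12 same-numbered pairs, which cannot show whether a batch was shared. With the replicate block the set kept counts of 13, 9 and 7, with 11399, 2726 and 5183 for all probes, and the slide block and the scan block also gave 13, 9 and 7. Scaling by total signal moved the median of all probes against sham to 0.17 at both times and the share of lower calls to 21.8% at day 7 and 40.2% at day 3 (56.1% and 56.6% in the main setting), and it gave 12, 9 and 7 for the set. That share at day 7 was 43.8% with quantile normalization, 44.1% with the authors' table and 18.5% with normexp, and at day 3 it was 66.7% with normexp without spots below local background. The cause of these shifts was not tested. Signal over background limits Tie1 at day 3 and Vwf probe C at day 7.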
